A study of Mus musculus with 4 samples.

Results

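Ddit4 was studied together with 8 genes that are known to respond to glucocorticoid, to FOXO transcription factors or to energy stress: Tsc22d3, Fkbp5, Sgk1, Txnip, Sesn1, Sesn3, Pik3ip1 and Foxo1. These 9 genes are among 19938 genes read from arrays of naive splenic CD8 T cells, which were isolated by fluorescence-activated sorting from mice. The 2 Klf13 knockout (KO) arrays and the 2 wild-type (WT) arrays were all of the BALB/c strain, and no treatment, age or sex is given for either genotype. Ddit4 was chosen by its KO minus WT difference on these arrays, so its difference is given as a description with no test. The other 8 were chosen for what they respond to, with earlier results of these arrays known. The labels name the knockout only as KLF13 KO, so which part of the gene was removed, and whether in all cells, is not given in the sources used here, nor is it stated whether the 2 samples of a genotype came from separate animals. The p-values therefore cover the spread between these arrays alone, and that spread could be technical.

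Ddit4 (also called REDD1) encodes an inhibitor of the growth kinase complex mTORC1, and is induced by glucocorticoids, by low oxygen, by DNA damage and by the stress factor ATF4. In resting T cells FOXO factors are active while the PI3K and AKT kinases are quiet, and they maintain genes of survival, homing and restraint of growth. Glucocorticoid acts through the receptor Nr3c1, which in lymphocytes turns on Tsc22d3 and Fkbp5 among many others. The question was whether the higher Ddit4 level in Klf13 KO cells was accompanied by other genes of such responses.

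Promoter windows from RefSeq (build GRCm38.p6, 250 bases before to 50 after a transcript start) were found for all 9 genes, 17 windows in all, since Sgk1 has 6, Tsc22d3 3 and Sesn1 2. The windows of Ddit4, Txnip, Sesn1 and Sgk1 are shown because Ddit4 differed most, Sgk1 was the gene with the opposite direction, and the other 2 hold the searched FOXO letters. Where a gene has several windows, the window shown was picked because it held letters marked below, which its other windows did not. Capitals mark matches, on either strand, to a glucocorticoid response element (GNACA and TGTNC with any 3 bases between), a FOXO site (GTAAACA), an E box (CACGTG) or the core of a hypoxia response element (ACGTG, which lies within the E box). They are written 5′ to 3′ on the strand of the gene, and come from chr10:59951721-59952020 (minus strand) for Ddit4, chr3:96557707-96558006 (plus) for Txnip, chr10:41810324-41810623 (plus) for Sesn1 and chr10:21993640-21993939 (plus) for Sgk1.
Ddit4: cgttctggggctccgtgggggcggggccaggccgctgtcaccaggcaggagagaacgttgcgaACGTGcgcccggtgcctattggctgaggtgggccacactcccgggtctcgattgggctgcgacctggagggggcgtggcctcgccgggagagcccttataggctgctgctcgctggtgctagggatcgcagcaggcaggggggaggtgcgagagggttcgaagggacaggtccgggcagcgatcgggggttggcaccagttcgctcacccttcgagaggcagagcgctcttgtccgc
Txnip: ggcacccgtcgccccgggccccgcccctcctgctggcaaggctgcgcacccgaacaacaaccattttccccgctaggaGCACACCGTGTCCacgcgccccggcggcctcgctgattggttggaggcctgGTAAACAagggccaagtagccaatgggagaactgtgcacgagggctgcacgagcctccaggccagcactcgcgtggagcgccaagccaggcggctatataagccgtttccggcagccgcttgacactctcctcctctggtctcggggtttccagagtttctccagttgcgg
Sesn1: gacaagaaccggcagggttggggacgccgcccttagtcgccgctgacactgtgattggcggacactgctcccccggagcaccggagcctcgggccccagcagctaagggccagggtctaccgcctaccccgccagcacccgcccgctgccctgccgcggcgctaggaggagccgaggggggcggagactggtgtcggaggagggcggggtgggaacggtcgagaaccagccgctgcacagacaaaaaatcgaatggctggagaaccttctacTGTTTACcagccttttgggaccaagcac
Sgk1: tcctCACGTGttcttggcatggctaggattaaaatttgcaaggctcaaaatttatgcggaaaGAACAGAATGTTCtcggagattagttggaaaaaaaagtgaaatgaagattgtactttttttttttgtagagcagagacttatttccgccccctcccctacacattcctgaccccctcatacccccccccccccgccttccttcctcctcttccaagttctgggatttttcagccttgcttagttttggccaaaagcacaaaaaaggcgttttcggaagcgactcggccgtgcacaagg

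The glucocorticoid letters were found in 2 of the 17 windows, at bases 79 to 91 of the Txnip window and at bases 63 to 75 of this Sgk1 window, and in 0.475% of all 32851 windows of the table. The FOXO letters were found in the Txnip window, at bases 130 to 136, in the Sesn1 window, at bases 273 to 279, and in 3.65% of all windows. The Ddit4 window held neither, but had 1 hypoxia core at bases 64 to 68, as did 19.6% of all windows. The E box was present in the Sgk1 and Fkbp5 windows and in 7.15% of all. The letters TGATGCAA, a form of the ATF4 site, were in none of the 17 windows and in 0.895% of all. The SP/KLF family, to which Klf13 belongs, binds GC-rich boxes. The GC box GGGCGG was found in 11 of the 17 windows and in 35.7% of all windows, and the CACCC box CCACCC in 6 of the 17 and in 31.5% of all. These matches are letters in a window and say nothing about binding in these cells.

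Klf13 itself had log2 values of 5.46 and 5.43 in KO cells, against 7.01 and 7.15 in WT cells. It fell by 1.63 on the log2 scale (SE 0.10, limma adjusted p = 3.75e-05). Within a genotype the arrays differed with an SD of 0.191 (KO) and 0.128 (WT) across genes, and the 4 pairs of a KO and a WT array differed by an SD of 0.192 to 0.254. The median over all genes was 4.71 and 4.66 in KO arrays, against 4.59 and 4.61 in WT arrays. Of the sorted cell type, 9 of 10 markers were measured and 0 passed limma's test (1 lower at an unadjusted p under 0.05, against 8.75% of all genes). Cd8a was at 11.11 and 11.14 in KO cells and at 11.25 and 11.12 in WT cells. Cd4 was at 4.07 and 3.47 in KO cells and at 3.79 and 3.88 in WT cells.

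Ddit4 had log2 values of 8.50 and 8.63 in KO cells, against 7.10 and 7.22 in WT cells. Both KO arrays lay above both WT arrays, with 1.28 between the lowest KO and the highest WT value. The means were 8.56 ± 0.10 in KO cells and 7.16 ± 0.08 in WT cells (SD, n = 2 each), a difference of 1.41, or 2.65-fold. Of all 19938 genes, 17 had a larger difference in either direction, and 0.145% were at least 2-fold higher in KO cells. Ddit4 is read from 1 probe set, as are the other 8 genes, so no second probe set was available as a check. In a bulk sample of sorted cells, a higher level per cell and a larger share of cells of another kind cannot be told apart.

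**Figure D1:**
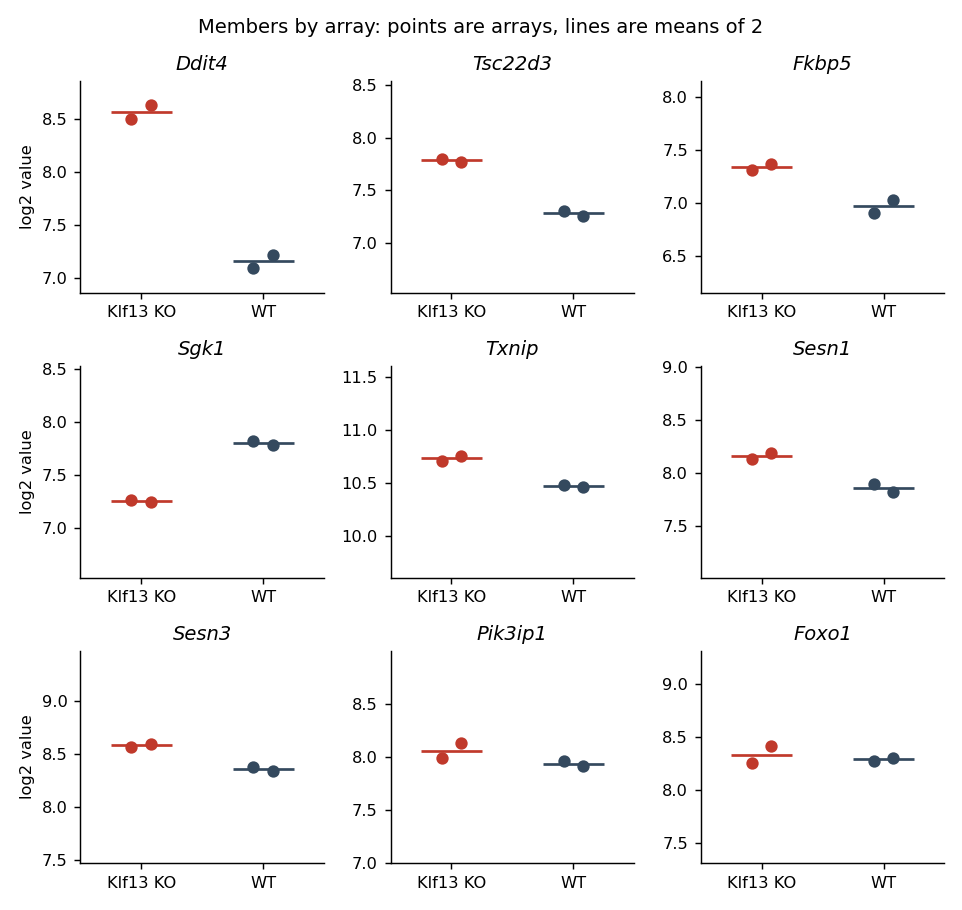
Log2 value of each of the 9 genes in every array, Klf13 KO left of WT; points are arrays, horizontal lines are means of 2, and every panel spans 2 log2 units. Ddit4 shows the widest gap (1.28), Sgk1 lies lower in KO cells, and Foxo1 is the gene whose groups overlap.

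Among the 8 other genes, Tsc22d3 rose and Sgk1 fell in KO cells, and 6 did not pass the test (limma, Benjamini-Hochberg adjusted p under 0.05 over all genes). Of all genes, 1.19% rose and 1.05% fell, and 2.25% changed in either direction. In the fit of the 9969 brighter genes alone, 606 were called, among them 3 of the 8. With each array centred on its median, 237 genes rose and 851 fell (21.8% of the calls higher), against 238 and 210 as deposited (53.1% higher), while Tsc22d3 and Sgk1 kept their calls. Both KO arrays lay above both WT arrays for 6 of the 8, which was so for 24.4% of all genes, and below them for Sgk1, which was so for 23.2%. At an unadjusted p under 0.05, 5 of the 8 were higher, against 7.85% of all genes, and 1 was lower, against 8.75%. The 6 in either direction became 3 with median centring, 3 without WT replicate 1 and 3 without WT replicate 2. They became 7 with quantile normalization repeated over the genes and 5 with a replicate block. The median difference of the 8 was 0.24, and that of all genes was 0.02.

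Tsc22d3, the glucocorticoid-induced leucine zipper GILZ and a textbook target of the glucocorticoid receptor, had values of 7.80 and 7.77 in KO cells, against 7.31 and 7.26 in WT cells. The genotypes did not overlap. It rose by 0.50, or 1.42-fold (SE 0.09, 95% interval 0.30 to 0.71, limma adjusted p = 0.0217). The call was lost without KO replicate 1 (adjusted p = 0.0623), without WT replicate 1 (adjusted p = 0.0839), without WT replicate 2 (adjusted p = 0.146) and with all 35556 probe sets of the table tested singly (adjusted p = 0.146), while the difference stayed between 0.42 and 0.59 in the 12 alternative settings. Of its family, Tsc22d1 rose as well, with 6.26 and 6.31 in KO cells and 5.77 and 5.87 in WT cells (limma adjusted p = 0.0342), a call lost without KO replicate 1 and without either WT array. Tsc22d4 differed by 0.14 and Tsc22d2 by -0.03, and neither passed.

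Fkbp5, an HSP90 co-chaperone that dampens the receptor's own signalling, had values of 7.31 and 7.36 in KO cells, against 6.91 and 7.02 in WT cells. Its genotypes did not overlap, but the difference of 0.37 (1.29-fold, SE 0.09) did not pass the test (limma adjusted p = 0.0839). Its partner co-chaperone Fkbp4 differed by -0.12. Of the 7 measured genes of the HSP90 co-chaperone list, Fkbp5 among them, 0 passed limma's test. At an unadjusted p under 0.05, 1 was higher and 0 lower, against 7.85% and 8.75% of all genes.

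Sgk1, a kinase related to AKT that glucocorticoids and mineralocorticoids induce and that regulates ion channels and FOXO factors, went the other way. Its values were 7.27 and 7.24 in KO cells, against 7.82 and 7.79 in WT cells. Both KO arrays lay below both WT arrays, with 0.52 between the highest KO and the lowest WT value. Sgk1 fell by 0.55 on the log2 scale (SE 0.09, 95% interval -0.75 to -0.35, limma adjusted p = 0.0135). The call was lost without WT replicate 1 (adjusted p = 0.0820), with quantile normalization repeated over the genes (adjusted p = 0.0531) and with all probe sets tested singly (adjusted p = 0.127). Of 8 measured genes of the SGK and AKT kinase list, 0 rose (1.19% of all genes), Sgk1 fell (1.05%) and 7 did not pass. Among the 7 were Sgk2 (0.10), the AKT gene Akt1 (0.16), Nedd4l (0.28), which encodes a ubiquitin ligase that Sgk1 phosphorylates, and the related ligase gene Nedd4 (0.21).

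**Figure D2:**
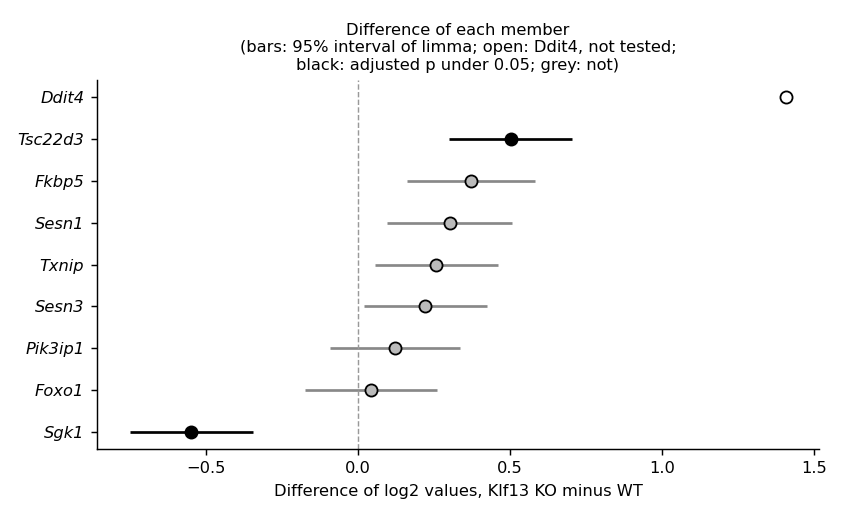
Difference of log2 values, Klf13 KO minus WT, for the 9 genes in order of size; bars are 95% intervals of limma, Ddit4 is open and has none because it was chosen for its difference, black points passed the adjusted test and grey points did not. Ddit4 lies at 1.41, Tsc22d3 at 0.50 and Sgk1 at -0.55, and the intervals of neighbours between Tsc22d3 and Foxo1 overlap.

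Txnip, whose product binds thioredoxin and limits glucose uptake and is a target of both FOXO1 and the glucose-sensing factor MondoA, had values of 10.70 and 10.76 in KO cells, against 10.48 and 10.46 in WT cells. The genotypes did not overlap, and the difference of 0.26 (SE 0.09) did not pass (limma adjusted p = 0.196). Of the related arrestin-domain genes, Arrdc4, another MondoA target, differed by 0.26 (limma adjusted p = 0.204). Arrdc3, an adaptor in receptor trafficking, fell by 0.71, with 5.71 and 5.93 in KO cells against 6.56 and 6.51 in WT cells (SE 0.10, limma adjusted p = 0.00675). Arrdc2 differed by -0.39 and did not pass (limma adjusted p = 0.0789). Of the 11 thioredoxin and arrestin genes, 0 rose (1.19% of all genes), 1 fell (1.05%) and 10 did not pass.

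The sestrins Sesn1 and Sesn3 restrain mTORC1 and are FOXO targets, and Sesn1 is also induced by p53. Sesn1 had values of 8.13 and 8.19 in KO cells, against 7.89 and 7.82 in WT cells. Sesn3 had values of 8.57 and 8.59 in KO cells, against 8.38 and 8.34 in WT cells. Neither overlapped between genotypes, and the differences of 0.30 (limma adjusted p = 0.142) and 0.22 (limma adjusted p = 0.261) did not pass. The third sestrin, Sesn2, which ATF4 and p53 induce, overlapped between genotypes and differed by -0.08; it was named after its value was seen.

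Pik3ip1, a membrane protein that inhibits PI3K, had values of 7.99 and 8.13 in KO cells, against 7.96 and 7.91 in WT cells. The lowest KO value lay 0.03 above the highest WT value, and the difference of 0.12 (95% interval -0.09 to 0.34) did not pass (limma adjusted p = 0.576). Foxo1, the main FOXO factor of naive T cells, had values of 8.25 and 8.41 in KO cells, against 8.27 and 8.30 in WT cells. Its genotypes overlapped, and the difference of 0.04 (95% interval -0.17 to 0.26, limma adjusted p = 0.870) turned to -0.043 when each array was centred on its median and to -0.036 without KO replicate 2. In order of difference the genes ran Ddit4, Tsc22d3, Fkbp5, Sesn1, Txnip, Sesn3, Pik3ip1, Foxo1 and Sgk1. From Tsc22d3 to Foxo1, the widest step between neighbours was 0.13, within the overlap of their 95% intervals, and the differences between genes were not tested.

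The factors upstream of these genes were measured as well. Of 13 regulators, 0 rose (1.19% of all genes), 1 fell (1.05%) and 12 did not pass. The one that fell was Hsd11b1, an enzyme that regenerates active glucocorticoid inside cells, with 6.43 and 6.40 in KO cells against 6.83 and 7.02 in WT cells (difference -0.51, SE 0.10, limma adjusted p = 0.0294). That call was lost without KO replicate 1, without WT replicate 2 and with quantile normalization repeated. The receptor Nr3c1 differed by 0.09 (limma adjusted p = 0.707) and Foxo3 by 0.11 (limma adjusted p = 0.600), both named after their values were seen. Foxo6 (0.43), the hypoxia factor Epas1 (0.26) and the MondoA partner Mlx (-0.15) did not pass.

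Of the 24 measured genes of the glucocorticoid list other than Ddit4, 3 rose, 2 fell and 19 did not pass. For comparison, 1.19% of all genes rose and 1.05% fell. The median difference of the 24 was 0.05. Of the 24, 5 were higher and 4 lower at an unadjusted limma p under 0.05, against 7.85% and 8.75% of all genes. Beside Tsc22d3, the chemokine receptor Cxcr4 rose by 0.63, with 10.92 and 11.04 in KO cells against 10.36 and 10.34 in WT cells (SE 0.09, limma adjusted p = 0.00817). Annexin A1 (Anxa1), an anti-inflammatory mediator, rose by 0.44 (limma adjusted p = 0.0382), a call lost when any of KO replicate 1, WT replicate 1 or WT replicate 2 was left out, with median centring and with repeated quantile normalization. Beside Sgk1, Errfi1, an inhibitor of EGF receptor signalling, fell by 0.55 (limma adjusted p = 0.0221), a call lost without KO replicate 1, without WT replicate 1 and with repeated quantile normalization. Il7r, the IL-7 receptor chain, which both glucocorticoid and FOXO1 maintain, had 10.06 and 10.13 in KO cells and 10.44 and 10.45 in WT cells, and its difference of -0.35 did not pass (limma adjusted p = 0.0935). Per1, a clock gene that glucocorticoid induces, overlapped between genotypes (-0.04), and Klf9 differed by 0.24 (limma adjusted p = 0.235); both were named after their values were seen.

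Of 26 measured FOXO-responsive genes, 0 passed limma's test in either direction, with a median difference of 0.01. At an unadjusted p under 0.05, 3 were higher and 4 lower, against 7.85% and 8.75% of all genes. The 3 higher genes were Sesn1, Txnip and Sesn3, all of the 9. The 4 lower ones were Il7r, the homing receptor gene Ccr7 (-0.27), the cell cycle inhibitor gene Cdkn1b (-0.25) and Klf6 (-0.22). The homing factor Klf2 and the egress receptor S1pr1, both FOXO1-dependent in naive T cells, differed by -0.05 and 0.02 and overlapped between genotypes; they were named after their values were seen.

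Ddit4 is shared by 4 further lists. Of 24 other genes that restrain mTORC1, 1 rose (1.19% of all genes), 0 fell (1.05%) and 23 did not pass. The one that rose was Ddit4l, the paralog of Ddit4, with 4.37 and 4.44 in KO cells against 3.83 and 4.04 in WT cells (difference 0.47, SE 0.10, limma adjusted p = 0.0467). The call was lost in 6 of 11 settings, among them each of KO replicate 1, KO replicate 2 and WT replicate 1 left out. With a mean log2 value of 4.17, Ddit4l was not among the 9969 brighter genes, so that setting did not cover it. The arginine sensor gene Castor1 (0.37), the TSC complex subunit gene Tbc1d7 (-0.33) and Nprl3 (-0.31), of the amino acid sensing complex GATOR1, did not pass.

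Of 23 other ATF4 target and stress genes, 0 passed limma's test. At an unadjusted p under 0.05, 6 were higher and 2 lower, against 7.85% and 8.75% of all genes. Ppp1r15a, the phosphatase subunit that reverses the stress response, differed by -0.43 (limma adjusted p = 0.0546), Stc2 by 0.41, Herpud1 by 0.33 and Trib3 by 0.32. Of 19 other hypoxia genes, 1 rose (1.19% of all genes), 1 fell (1.05%) and 17 did not pass, with a median difference of -0.08. Ndrg1 rose by 0.93, or 1.91-fold, with 7.08 and 7.06 in KO cells against 6.02 and 6.26 in WT cells (SE 0.10, limma adjusted p = 0.00158). Ldha, the lactate dehydrogenase gene of glycolysis, fell by 0.61, with 9.99 and 10.08 in KO cells against 10.59 and 10.70 in WT cells (SE 0.10, limma adjusted p = 0.0097), a call lost without KO replicate 1. Egln3 (-0.26) and Bnip3 (-0.25) did not pass. Of 17 other p53 targets, 0 rose (1.19% of all genes), 1 fell (1.05%) and 16 did not pass. The gene that fell was the death receptor gene Fas, by 0.62 (SE 0.10, limma adjusted p = 0.00943). Among the 16 were Rrm2b (-0.16), Pmaip1 (-0.16) and Phlda3 (0.18).

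**Figure D3:**
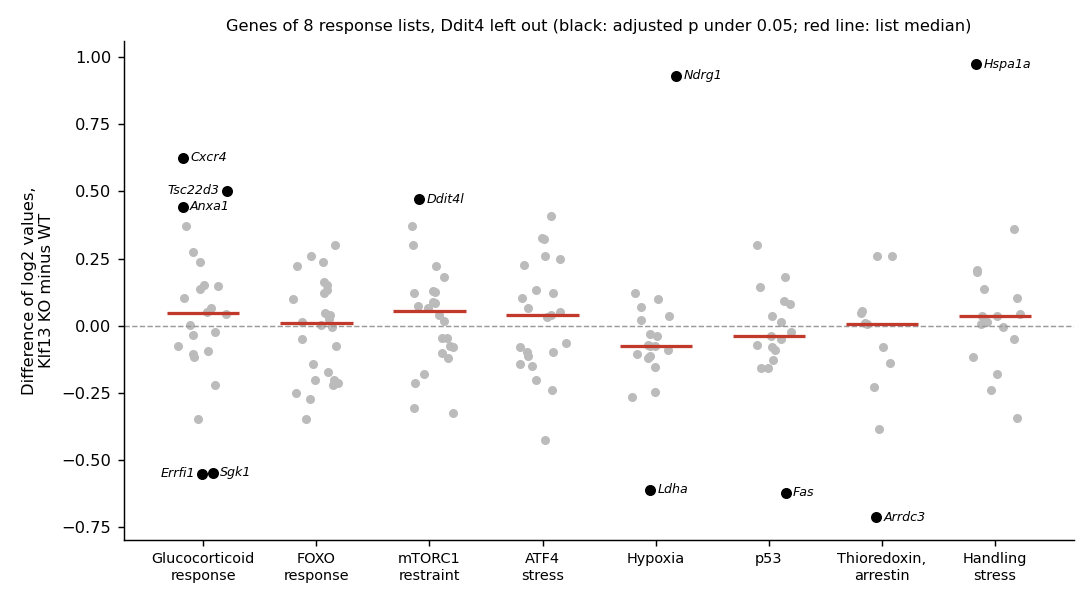
Difference of log2 values, Klf13 KO minus WT, for the genes of 8 response lists with Ddit4 left out; each point is a gene, black points passed the adjusted limma test, grey points did not, and red lines are list medians. The medians lie between -0.08 and 0.05, with called genes both above and below 0 in the glucocorticoid and hypoxia lists.

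Over the 12 response and family lists together, Ddit4 left out, 175 genes were measured, of which 7 rose and 6 fell. This is 7.43% called, against 2.25% of all genes, and the median difference was 0.003, against 0.02 for all genes. With the 9 genes of this report left out, the share called was 6.59%. In the fit of the 9969 brighter genes alone, 606 were called, 16 of them from these lists. The lists were not matched to all genes by level, so 7.43% and 2.25% do not compare genes of like level. Of the listed genes, the 7 that rose were Tsc22d3, Tsc22d1, Cxcr4, Anxa1, Ddit4l, Ndrg1 and Hspa1a. The 6 that fell were Sgk1, Errfi1, Hsd11b1, Ldha, Fas and Arrdc3. Of these 13, 6 were still called without KO replicate 1, 12 without KO replicate 2, 7 without WT replicate 1 and 9 without WT replicate 2. Cxcr4, Arrdc3, Fas, Ndrg1 and Hspa1a passed in 11 of 12 alternative settings each. In the remaining setting, with all 35556 probe sets of the table tested singly, 0 of the 13 passed limma's test (39 of the 175 at an unadjusted p under 0.05).

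Next, the genes whose 4 values followed Ddit4 most closely were sought among all other 19937 genes. Each gene's values were taken minus its own mean over the 4 arrays, and likeness was the Euclidean distance to Ddit4 on the log2 scale. The 8 nearest, with 2 unnamed or immunoglobulin genes left out by symbol, were Igfbp4, which binds insulin-like growth factors (distance 0.135), the progenitor and endothelial receptor gene Cd93 (0.142), the neutrophil elastase gene Elane (0.204), the eosinophil granule gene Prg2 (0.211), the pancreatic carboxypeptidase gene Cpa1 (0.227), the endothelial adhesion receptor gene Adgrl4 (0.229), Dhdh (0.251) and Tifab (0.270). Igfbp4 had 9.08 and 9.14 in KO cells against 7.57 and 7.61 in WT cells. Cd93 had 6.10 and 6.11 in KO cells against 4.77 and 4.81 in WT cells. Since the distance follows the size of the difference, these are genes that were 2.30 to 3.03-fold higher in KO cells, and they were selected for it. Of the other 8 response genes the nearest was Tsc22d3, at rank 198 (distance 0.921), followed by Fkbp5 at rank 388 (1.04), and Sgk1 lay at rank 19802 (1.96).

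**Figure D4:**
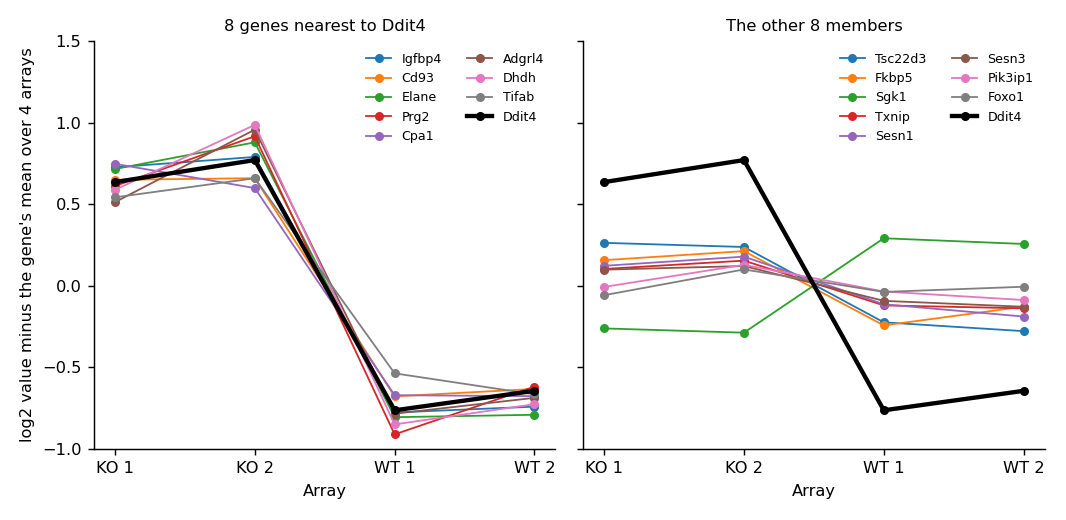
Log2 value minus each gene's mean over the 4 arrays, by array (KO 1, KO 2, WT 1, WT 2), for the 8 genes nearest to Ddit4 (left) and for the other 8 response genes (right), with Ddit4 in black in both. The nearest genes differ by 1.20 to 1.60 between genotypes, whereas the other response genes lie within 0.30 of their means in every array.

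Markers of other cells moved beside Ddit4 on the same arrays. For comparison, 1.19% of all genes rose and 1.05% fell. Of 12 granulocyte and progenitor markers, 5 rose (Mpo, Elane, Prtn3, Ctsg and Cd34) and 0 fell, with a mean log2 value of 5.45 and 5.45 in KO arrays and 4.57 and 4.66 in WT arrays. Both KO arrays lay above both WT arrays for 10 of the 12, which was so for 24.4% of all genes. Of the 12, 8 were higher and 0 lower at an unadjusted limma p under 0.05. The neutrophil marker Ly6g was at 2.65 and 2.53 in KO arrays and at 2.80 and 2.62 in WT arrays, and RMA values are never 0. Of 10 myeloid markers, 4 rose (Lyz2, Csf1r, Mpeg1 and Tyrobp) and 0 fell, with means of 4.48 and 4.66 in KO arrays and 4.18 and 4.13 in WT arrays. Of the 10, 6 were higher and 1 lower at an unadjusted limma p under 0.05. Cd68, of the same list and named after its value was seen, did not pass and was lower at an unadjusted p of 0.0159 (difference -0.34). Of 9 B cell markers, 2 rose (Ighm and Cd74) and 0 fell, with means of 5.66 and 5.70 in KO arrays and 5.35 and 5.42 in WT arrays. At an unadjusted p under 0.05, 5 of them were higher and 0 lower. Ms4a1 (0.01), Cd22 (-0.05) and Ebf1 (0.10), of the same list, overlapped between genotypes and were named after their values were seen. Of 5 platelet and red cell markers, the platelet genes Itga2b and Pf4 rose and 0 fell, with means of 5.27 and 5.38 in KO arrays and 5.13 and 5.04 in WT arrays. Of the 5, 3 were higher and 1 lower at an unadjusted limma p under 0.05. The red cell genes Epb42 (-0.31, lower at an unadjusted p of 0.00925) and Alas2 (0.05) did not pass. Both were named after their values were seen. Of 6 NK cell markers Tyrobp rose, which is already counted in the myeloid list, and 0 fell. Of the 6, 4 were higher and 0 lower at an unadjusted limma p under 0.05. Of 5 CD4 T cell markers 0 passed limma's test, with 1 higher at an unadjusted p under 0.05, against 7.85% of all genes. The part of these cells in the values of Ddit4, Tsc22d3 or Sgk1 was not tested.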

How the data were processed

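The 1-colour Affymetrix arrays were deposited as log2 values per probe set, and the submitters' processing notes name Partek and RMA without versions. RMA brings the distributions of the arrays close together, so a shift of most genes is lost and dim genes show compressed folds. They were not identical here. The upper quartile over all probe sets was 6.52 and 6.63 in KO arrays, against 6.67 and 6.66 in WT arrays. GEO's platform annotation paired 21789 of 35556 probe sets with 1 gene symbol, 1621 with several and 12146 with none. RefSeq names (GRCm38.p6) replaced older symbols for the 21698 whose gene identifier matched. For each gene the brightest probe set paired with it alone was taken, by its mean over the 4 arrays, with no filter on level. KO was compared with WT by limma 3.58.1 under R 4.3.3 (linear fit with a genotype term, eBayes, two-sided p adjusted by Benjamini-Hochberg over 19938 genes, threshold 0.05, prior degrees of freedom 8.06). Levels depend on how well a probe set binds and were not compared between genes, save to pick the 9969 brighter genes of an alternative below. With 2 arrays per genotype the number of arrays limits the precision.

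The 9 genes, the lists, the motifs and the alternatives were chosen with earlier results of these data known. Named were the 9 genes, Klf13 and up to 4 further genes of each list with the smallest p. The 8 genes nearest to Ddit4 and the marker genes that passed were named too. The markers Cd8a, Cd4 and Ly6g were named outside this rule, and other genes outside it are marked. Genes of the lists without a single-gene probe set here were not analysed. Alternatives were all single-gene probe sets, averaged probe sets per gene, only the 9969 brighter genes, repeated quantile normalization, median centring, eBayes with trend and robust options, a replicate block, each array left out, and, chosen after seeing the data, all 35556 probe sets. Where 1 array of a genotype is left, it is assumed to vary like the other genotype's.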

Additional observations from a re-analysis of the deposited data

How the results depend on the processing

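The difference of Ddit4 lay between 1.32 and 1.48 in the alternatives run; its largest move, 0.086 with median centring, was under the SD of the KO arrays (0.096) and over that of the WT arrays (0.085). The count of 448 called genes became 1088 with median centring, 831 with a variance trend and robust moderation, and 39 when all 35556 probe sets were tested singly; leaving out 1 array gave 264 to 1536. Of the 8 other response genes, 2 were called; the count was 1 after a further quantile normalization, 5 with the variance trend (Fkbp5, Sesn1 and Txnip added), and 0 with all probe sets (6 at an unadjusted limma p under 0.05), and 0 to 2 without 1 array. It was 0 without WT replicate 1 and 1 without KO replicate 1 or without WT replicate 2. Of the 175 pathway genes, 13 were called, against 23 with the variance trend, 0 with all probe sets (39 at an unadjusted limma p under 0.05) and 7 to 20 without 1 array. Foxo1 turned to -0.043 with median centring, and ranged from -0.036 (without KO replicate 2) to 0.12 (without KO replicate 1) when 1 array was left out. Arrays that share a replicate number did not deviate together (correlation across genes 0.007). With 2 arrays per genotype this cannot settle whether the numbers pair samples, and the labels do not say. With the replicate block 1187 genes and 22 pathway genes were called. Fkbp5 then joined Tsc22d3 and Sgk1 (limma adjusted p = 0.0269), as it did among the 9969 brighter genes (limma adjusted p = 0.0420). Median centring lowered every difference by 0.086. The fit of all probe sets had 2.89 prior degrees of freedom, against 8.06 in the fit of genes. The cause of these changes was not tested.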

Other observations

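Of 17 measured handling and heat stress genes, 1 rose (1.19% of all genes), 0 fell (1.05%) and 16 did not pass limma's test. Hspa1a, an inducible chaperone gene of the HSP70 family, rose by 0.97, with 7.37 and 7.34 in KO cells against 6.35 and 6.40 in WT cells (SE 0.09, limma adjusted p = 4.98e-04). Its near-identical neighbour Hspa1b was not analysed here, and the probe set may bind both transcripts. Gadd45b (-0.34), the early-response gene Nr4a1 (0.36) and the chaperone gene Hsph1 (-0.24) did not pass.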
